A study of Mus musculus with 8 samples.

Results

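The 10 genes described here encode LIM homeobox transcription factors (Lhx1, Lhx5, Lhx6, Lhx8 and Lhx9), LIM-only proteins (Lmo1, Lmo2, Lmo3 and Lmo4) and the LIM-domain-binding protein Ldb1. They were chosen by gene symbol, and all 10 had a row among the 53507 gene rows of the count files. Total RNA of tdTomato+ mouse brain cells, which the labels call progenitor cells, was sequenced in 4 groups of 2 libraries. The embryonic groups, E13 and E15, are labelled wt. The P12 groups are Nx, mice kept in a normal atmosphere, and Hx, mice reared at 10 ± 0.5% O2 from P3 for 8 days until P11 and collected at P12, with hypoxic and control foster mothers swapped during the exposure. Every library was made from 400 pg of RNA. The strain, the sex, the allele that drives tdTomato and the number of animals behind a library are not given in the sources used here, so p-values measure only the spread between these libraries, which may be technical. The series' title speaks of neonatal brain injury and the reactivation of cortical progenitors.

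LIM homeodomain factors bind DNA and help to fix the identity of neurons and of brain regions. They act through LDB1, a dimerising cofactor that grips their LIM domains and joins factors into larger complexes. LIM-only proteins carry LIM domains and no homeodomain, cannot bind DNA themselves, and bind the same surface of LDB1, so they can compete with LIM homeodomain factors for it or bridge other DNA-binding proteins. In the forebrain, Lhx1 and Lhx5 are known from Cajal-Retzius cells and the diencephalon, Lhx6 and Lhx8 from the medial ganglionic eminence and its interneurons and cholinergic neurons, Lhx9 from thalamic and early cortical neurons, and Lmo3 and Lmo4 from cortical neurons.

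The promoters of 3 genes that stand for different courses in these libraries are shown: Lhx1 (embryonic), Lmo1 (the main LIM-only transcript of the embryo) and Lmo4 (higher at P12). Each is the 250 bases before a RefSeq transcription start on the minus strand of GRCm38.p6, read 5′ to 3′. Capitals mark TAATTA, a core that homeodomains recognise, and CANNTG, the E-box core; neither motif differs from its reverse complement pattern, so both strands were covered, and no matches overlapped.
Lhx1, chr11:84525535-84525784: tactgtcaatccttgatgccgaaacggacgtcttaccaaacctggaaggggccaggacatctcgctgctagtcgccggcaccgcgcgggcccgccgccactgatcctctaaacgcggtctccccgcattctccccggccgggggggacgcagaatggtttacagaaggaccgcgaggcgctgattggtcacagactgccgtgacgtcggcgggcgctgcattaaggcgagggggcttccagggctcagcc
Lmo1, chr7:109175208-109175457: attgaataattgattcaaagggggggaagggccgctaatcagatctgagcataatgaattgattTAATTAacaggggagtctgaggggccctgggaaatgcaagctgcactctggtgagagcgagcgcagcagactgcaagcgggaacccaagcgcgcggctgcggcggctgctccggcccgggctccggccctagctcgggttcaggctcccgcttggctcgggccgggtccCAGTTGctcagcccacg
Lmo4, chr3:144205256-144205505: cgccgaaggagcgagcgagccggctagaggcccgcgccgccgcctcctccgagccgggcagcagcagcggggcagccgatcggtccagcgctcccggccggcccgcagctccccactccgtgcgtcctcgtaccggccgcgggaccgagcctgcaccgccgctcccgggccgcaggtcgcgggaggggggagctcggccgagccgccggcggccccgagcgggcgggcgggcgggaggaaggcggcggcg
The Lmo1 window held 1 TAATTA and 1 CANNTG, and the Lhx1 and Lmo4 windows shown held 0 of either. RefSeq lists 2 starts for Lmo1 and 3 for Lmo4, of which the outermost is shown. The second Lmo1 window overlaps the first and held the same match of each motif. The other Lmo4 windows, at 73.6% and 76.8% GC, overlap each other and share 1 CANNTG. Among 32851 RefSeq promoters of the same length, 4.84% held TAATTA and 66.22% held CANNTG. GC content was 64.8% for Lhx1, 61.2% for Lmo1 and 82.4% for Lmo4, against a median of 52.4%, and the Lmo4 window shown was richer in GC than 99.42% of promoters. A match is a description of letters and not a binding site.

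The libraries held 36252027 to 47084796 counts in gene rows. Replicates correlated at r = 0.984 for E13 and 0.988 for E15 across genes (log2 of CPM + 1), and at 0.817 for normoxic and 0.705 for hypoxic P12. P12 libraries of different groups correlated at 0.716 to 0.769, below the normoxic pair and above the hypoxic pair. Genes with at least 10 counts numbered 17520 to 18318 in the embryo, 14129 and 16468 in normoxia, and 12785 and 11695 in hypoxia. The label of progenitor cells was set against markers. Embryonic libraries carried 278 to 408 CPM (counts scaled by library size, as defined with the processing) summed over 9 radial glia markers, 443 to 766 CPM over 3 intermediate progenitor markers and 2469 to 2839 CPM over 6 neuron markers, so the neuron markers were the most abundant of the 3 lists. P12 libraries carried 3902 to 5253 CPM of radial glia markers, mostly Slc1a3, which astrocytes also express, with 4372 to 7448 CPM over 5 astrocyte markers against 7.35 to 36.02 CPM in the embryo. Summed neuron markers at P12 were 267 to 679 CPM, and oligodendrocyte progenitor markers were 251 and 202 CPM in normoxia, 522 and 768 CPM in hypoxia and at most 2.22 CPM in the embryo. These makeups move with age in every comparison of P12 with the embryo below, their part in the results was not tested, and in bulk libraries fewer cells of a type and less RNA per cell cannot be told apart.

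Lhx1 (chromosome 11, 84518284 to 84525535, GRCm38) was highest at E13 in these cells. Its level was 10.9 and 30.4 CPM at E13, 0.317 and 1.08 CPM at E15, and 0 counts in all 4 P12 libraries. Both E13 libraries were above both E15 libraries, and all 4 embryonic libraries were above P12. The E15 to E13 log2 fold change was -4.88 ± 1.37 (SE), and it did not pass the threshold (edgeR quasi-likelihood test, Benjamini-Hochberg adjusted over 19936 genes, adjusted p = 1). Against the embryo, Lhx1 was at least 111-fold lower in normoxic P12 cells (edgeR, adjusted p = 0.0383) and at least 100.8-fold lower in hypoxic P12 cells (adjusted p = 0.0301), the bounds setting 3 counts, the limit that 0 counts allow, in each P12 library. The normoxic call was lost when any 1 library of E13, E15 or normoxia was left out (adjusted p 0.0716 to 0.173), and the hypoxic call when any 1 embryonic library was left out (adjusted p 0.100 to 0.130). Lhx1os, a noncoding gene on the opposite strand just upstream (chromosome 11, 84525660 to 84535831), was looked up after the values of Lhx1 were seen. It had 2.97 and 9.14 CPM at E13, 0.528 and 0.402 CPM at E15 and 0 counts at P12, the same order of groups.

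Lhx5 (chromosome 5, 120431699 to 120441223), the close relative of Lhx1, had 3.54 and 8.07 CPM at E13, 0.810 and 0 CPM at E15, and 0 counts at P12. The 2 E13 libraries were the highest of the 8 and the second E15 library was at 0 with P12. Its difference between E15 and E13 was -3.83 ± 2.54 (log2, SE; edgeR, adjusted p = 1). Lhx5 was at least 32.2-fold lower than the embryo in normoxia (edgeR, adjusted p = 0.171) and at least 29.3-fold lower in hypoxia (adjusted p = 0.145), and neither passed the threshold.

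Lhx9 (chromosome 1, 138825186 to 138848577) had the highest level of the 5 Lhx members in each embryonic library, in CPM and per kilobase of exon. It had 159 and 199.7 CPM at E13, 60.0 and 62.8 CPM at E15, and 0 counts in all 4 P12 libraries. The 3 levels did not overlap, and the E15 libraries lay close together at 61.4 ± 1.97 CPM (SD, n = 2). Lhx9 was at least 1247-fold lower in normoxic P12 cells than in the embryo (edgeR, adjusted p = 0.00266) and at least 1136-fold lower in hypoxic cells (adjusted p = 0.00224), and no single library left out ended either call. The E15 to E13 difference was -1.55 ± 0.47 (log2, SE; edgeR, adjusted p = 1).

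The medial ganglionic eminence pair was near or at 0. Lhx6 (chromosome 2, 36081953 to 36105408), which guides the migration and identity of interneurons, had 0 and 0.517 CPM at E13, 0.511 and 0.418 CPM at E15, 0.0318 and 0.0652 CPM in normoxia and 0 counts in both hypoxic libraries. The first E13 library, with 0 counts, lay below the normoxic ones, so embryo and normoxia overlapped. Lhx6 was 7.54-fold lower in normoxia by pooled counts (95% counting interval 2.49 to 37.3; edgeR, adjusted p = 0.384) and at least 3.41-fold lower in hypoxia (adjusted p = 0.138). Lhx8 (chromosome 3, 154306294 to 154330659), a factor of cholinergic neurons, had 0 counts in all 8 libraries, which allows up to 0.0482 to 0.0537 CPM in the embryonic and 0.0953 to 0.111 CPM in the P12 libraries, and it was not tested.

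**Figure D1:**
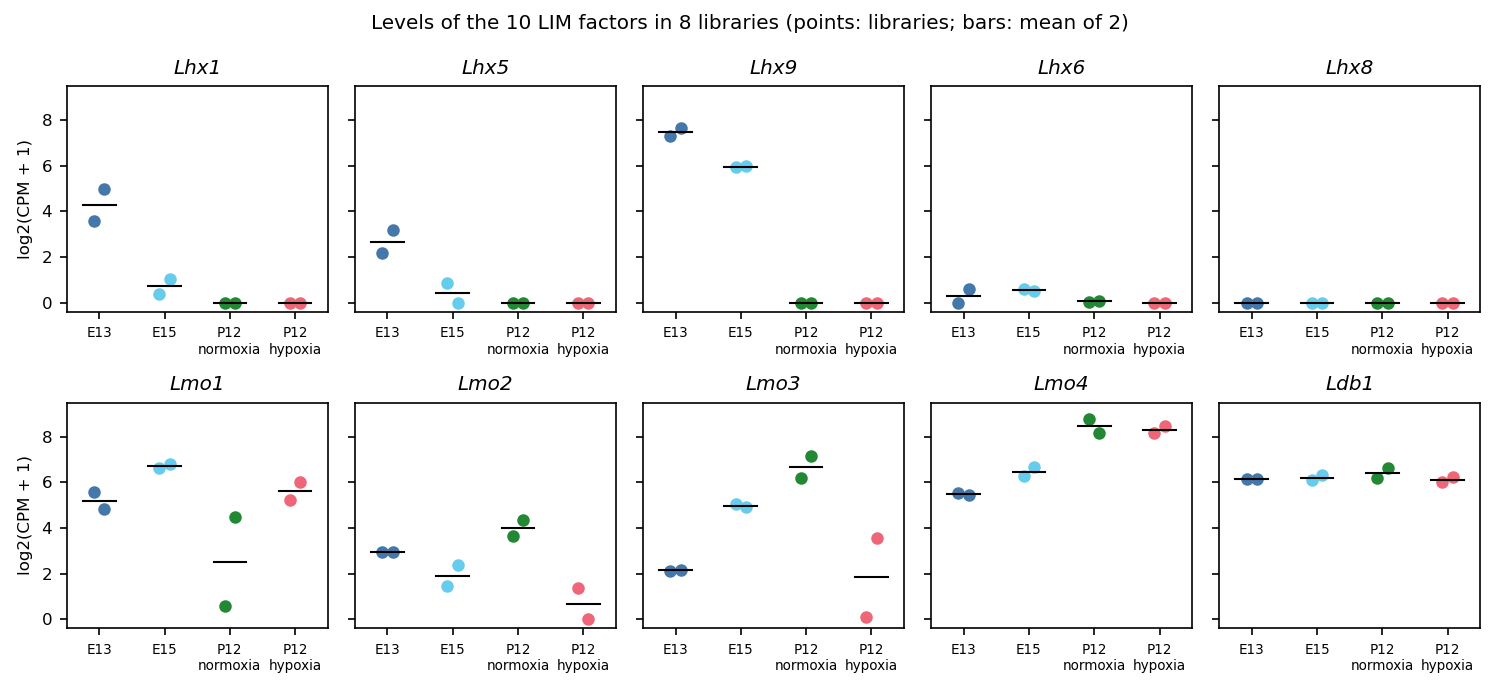
Level of each of the 10 genes in every library, in CPM on a scale of log2(CPM + 1), with 1 point per library and a bar at the mean of the 2 libraries of E13, E15, P12 normoxia or P12 hypoxia. Lhx1, Lhx5 and Lhx9 are at 0 in all P12 libraries, while Lmo4 is at 282 CPM or more in each of them.

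Lmo4 (chromosome 3, 144188530 to 144205220) is a cofactor known from the patterning of cortical areas. It was the 1 LIM-only gene called higher in both P12 groups than in the embryo. It had 44.7 and 42.4 CPM at E13, 77.1 and 100.1 CPM at E15, 436 and 282 CPM in normoxia, and 283 and 350.1 CPM in hypoxia. All 4 P12 libraries were above all embryonic ones, and the hypoxic libraries lay within the normoxic range. Against the embryo the log2 fold change was 2.53 ± 0.26 (SE) in normoxia (edgeR, adjusted p = 0.00274) and 2.35 ± 0.26 in hypoxia (adjusted p = 0.00283), and the calls held with each library left out in turn. Between the P12 groups it was -0.18 ± 0.32 (adjusted p = 0.895), with a positive sign without the first normoxic or the first hypoxic library. The E15 libraries were above the E13 ones by 1.02 ± 0.32 on the log2 scale (adjusted p = 1).

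Lmo1 (chromosome 7, 109138572 to 109175207), a LIM-only gene of the nervous system, had 46.8 and 27.0 CPM at E13, 96.8 and 111.8 CPM at E15, 0.476 and 21.4 CPM in normoxia, and 36.4 and 64.1 CPM in hypoxia. Its 2 normoxic libraries were the lowest of the 8 and stood far apart from each other. The hypoxic libraries were above the normoxic ones by 2.20 ± 1.46 (log2, SE; edgeR, adjusted p = 0.511), which was not past the threshold. Without the second normoxic library the value was 6.71 (adjusted p = 0.0328), resting on the remaining normoxic library. Against the embryo the log2 fold change was -2.50 ± 1.38 in normoxia (adjusted p = 0.256), or -7.02 without that same library (adjusted p = 0.0157), and -0.31 ± 1.22 in hypoxia (adjusted p = 0.888). E15 was above E13 by 1.498 ± 1.42 (adjusted p = 1).

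Lmo3 (chromosome 6, 138362918 to 138581968), a LIM-only gene of neurons, had 3.38 and 3.40 CPM at E13, 31.6 and 28.9 CPM at E15, 71.5 and 143 CPM in normoxia, and 0.0673 and 10.9 CPM in hypoxia. The normoxic libraries were the 2 highest of the 8, and the first hypoxic library was the lowest. The hypoxic to normoxic difference of -4.30 ± 1.88 (log2, SE; edgeR, adjusted p = 0.298) did not pass the threshold. It was -3.19 without the first hypoxic library and -10.5 without the second, each resting on the 1 remaining hypoxic library. Of 15 alternatives, 13 likewise did not pass. Neuron markers were split over the P12 libraries, as 6 of 6 reached 1 CPM in each normoxic and 3 of 6 (Tubb3, Dcx and Map2) in each hypoxic library. Like Lmo3, the other 3 were higher in normoxia. Snap25 had 85.8 and 87.6 CPM there against 0.605 and 0.333 CPM in hypoxia. Stmn2 had 29.3 and 40.5 CPM against 0.101 and 0.0740 CPM, and Syp 27.3 and 10.8 CPM against 0 and 0.0370 CPM. Tubb3, Dcx and Map2 did not share this order. Map2 had 80.3 and 151 CPM in normoxia against 177 and 310 CPM in hypoxia. Tubb3 had 56.9 and 87.7 CPM against 62.5 and 155 CPM, and Dcx 54.1 and 62.6 CPM against 26.3 and 213 CPM. Summed over the list, the markers had 334 and 440 CPM in normoxia and 267 and 679 CPM in hypoxia. Their part in the Lmo3 levels was not tested. E15 was above E13 by 3.16 ± 1.78 (adjusted p = 1), and normoxia was above the embryo by 3.41 ± 1.39 (adjusted p = 0.148), a value that passed the threshold when either hypoxic library was left out of the fit. Hypoxia against the embryo gave -0.89 ± 1.48 (adjusted p = 0.693), which was -7.19 without the second hypoxic library, again resting on the 1 that remained.

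Lmo2 (chromosome 2, 103957986 to 103981878), a bridging protein of blood and endothelial transcription complexes, had 6.73 and 6.75 CPM at E13, 1.73 and 4.13 CPM at E15, 11.6 and 19.6 CPM in normoxia, and 1.55 and 0 CPM in hypoxia. Both normoxic libraries were above the other 6. The hypoxic to normoxic log2 fold change was -4.33 ± 2.06 (SE, edgeR, adjusted p = 0.334), not past the threshold, while DESeq2 gave an adjusted p of 0.0450. Of 15 alternatives, 13 likewise did not pass. Without the first hypoxic library, hypoxia rested on 1 library with 0 counts. The first hypoxic library also held all hypoxic counts behind the comparison with the embryo, -2.52 ± 1.78 (adjusted p = 0.327). Normoxia against the embryo was 1.81 ± 1.49 (adjusted p = 0.437), and E15 against E13 was -1.20 ± 1.82 (adjusted p = 1). In the normoxic libraries, where Lmo2 was highest, 7 of 8 endothelial markers had 0 counts and their sum was 0.0318 and 0.912 CPM, against 7.20 to 11.3 CPM in the embryo. The 6 microglia markers were all at 0 in the first normoxic library and summed to 21.2 CPM in the second, all from P2ry12. The 5 red blood cell markers summed to 2237 and 7292 CPM at E13, 20.1 and 85.5 CPM at E15 and at most 4.31 CPM at P12, and their part in the E13 level of Lmo2 was not tested. The 4 mural cell markers, which mark the contractile cells around vessels, summed to 2558 and 1999 CPM in normoxia, 1279 and 1043 CPM in hypoxia and at most 3.65 CPM in the embryo, mostly from Rgs5, with Kcnj8 at 0 counts in all 4 P12 libraries. Like Lmo2 this sum was highest in the normoxic libraries. Pdgfrb, at 21.9 and 72.0 CPM in normoxia and 34.5 and 0.629 CPM in hypoxia, overlapped between the P12 groups. So did Cspg4, at 34.9 and 21.1 CPM against 3.87 and 21.4 CPM. In hypoxia the mural sum was above that of the embryo, whereas Lmo2 was below its E13 level. The part of these cells in the Lmo2 levels was not tested.

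Set per kilobase of annotated exon, the level scale on which genes can be compared, Lmo1 and Lmo4 exchanged places between embryo and P12. Lmo1 made up 64.8% and 52.4% of the summed LIM-only level (CPM per kb) at E13 and 68.4% and 66.7% at E15, against 0.214% and 10.6% in normoxia and 22.5% and 29.0% in hypoxia. Lmo4 made up 24.0% to 36.2% in the embryo, 86.3% and 61.2% in normoxia, and 76.8% and 69.6% in hypoxia. Lmo3 reached its highest shares, 9.74% and 21.4%, in normoxia, with 0.0126% and 1.49% in hypoxia, and Lmo2 stayed between 0% and 9.39% in all libraries. The shares of the embryonic libraries did not overlap those of P12 for Lmo1 or Lmo4. Normoxic and hypoxic shares did not overlap for Lmo1, lower in normoxia, or for Lmo2 and Lmo3, higher in normoxia. Those of Lmo4 overlapped. No test was run on these shares.

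**Figure D2:**
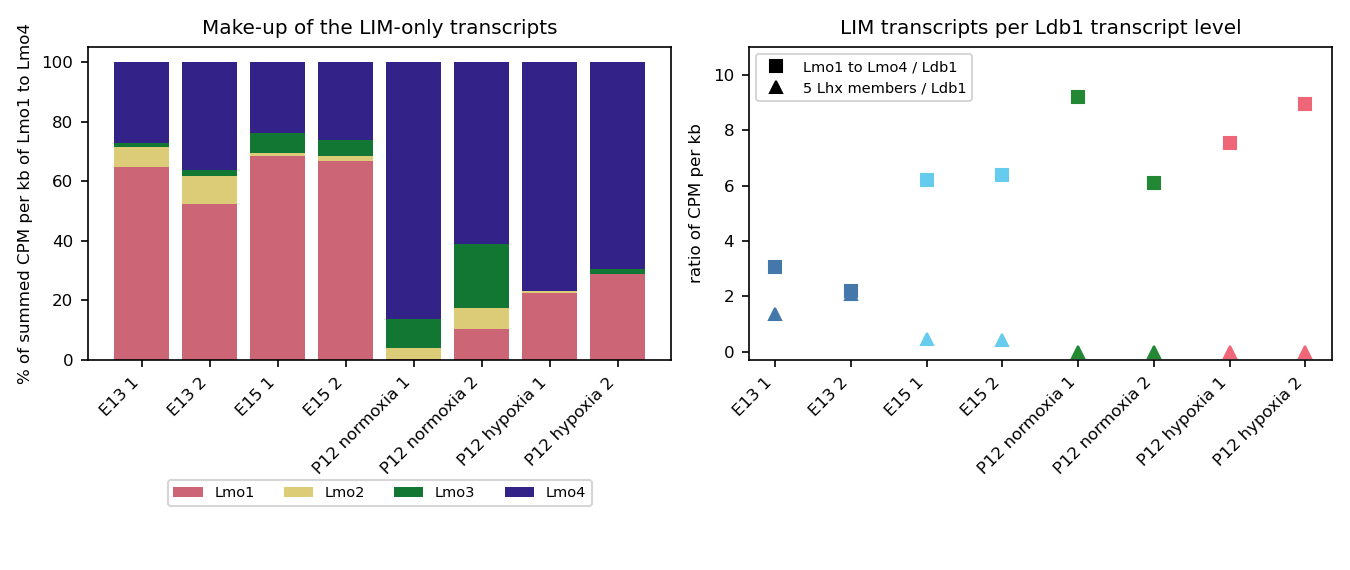
Left, share of Lmo1, Lmo2, Lmo3 and Lmo4 in their summed level (CPM per kb of exon, in percent) for each of the 8 libraries. Right, the summed LIM-only level and the summed level of the Lhx members (without Lhx2), each divided by the Ldb1 level of the same library. These are squares and triangles, which nearly coincide in the second E13 library. Lmo1 holds the largest share in all 4 embryonic libraries and Lmo4 in all 4 P12 libraries. The ratio of the Lhx members, which do not include Lhx2, is at or near 0 at P12.

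Ldb1 (chromosome 19, 46031570 to 46045214), the shared cofactor, ranged from 63.7 to 98.7 CPM over the 8 libraries. It had 70.3 and 70.4 CPM at E13, 67.9 and 77.9 CPM at E15, 71.8 and 98.7 CPM in normoxia, and 63.7 and 73.6 CPM in hypoxia. The groups overlapped in all 4 comparisons, and the 4 log2 fold changes lay between -0.31 ± 0.36 (hypoxia against normoxia, SE; edgeR, adjusted p = 0.776) and 0.25 ± 0.31 (normoxia against the embryo, adjusted p = 0.614). Hypoxia against the embryo gave -0.06 ± 0.31 (adjusted p = 0.919) and 0.159 with RLE factors, so its sign turned with the scaling. Its exons share 177 of 4606 bases with Pprc1 on the opposite strand, and reads there cannot be assigned if strand was not used in counting. Relative to Ldb1 (both in CPM per kb), the summed LIM-only level was 3.05 and 2.17 at E13, 6.19 and 6.39 at E15, 9.19 and 6.10 in normoxia, and 7.54 and 8.93 in hypoxia. The summed level of the Lhx members relative to Ldb1 was 1.36 and 2.07 at E13, 0.462 and 0.412 at E15, 0.000424 and 0.000633 in normoxia, and 0 in both hypoxic libraries. Thus the LIM-only ratio was lowest, and the ratio of the Lhx members highest, in the E13 libraries. The Lhx sum leaves out Lhx2, a LIM homeodomain gene outside the set. Mean Lhx2 levels were 111 CPM per kb at E13, 152 at E15, 19.9 in normoxia and 11.2 in hypoxia. The order given for the Lhx ratio therefore holds for the members and not for all LIM homeodomain genes.

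Counted over the set, 9 of the 10 genes passed the filter on low counts (all but Lhx8). Between hypoxic and normoxic P12 cells 0 of 9 were called by edgeR, where 3.02% of all tested genes were called (0.196% higher and 2.82% lower). Of the 9, 0 had an unadjusted p under 0.05, and limma-voom also called 0 and DESeq2 1. Lhx1, Lhx5 and Lhx9 had 0 counts in all 4 P12 libraries and passed the filter through the embryo, so no difference could be seen for them. With only the P12 libraries in the fit, 5 members were tested and 0 called. The 2 groups did not overlap for 4 of 9, with Lmo1 higher and Lmo2, Lmo3 and Lhx6 lower in hypoxia (Lhx6 on 3 counts against 0), beside 33.2% of all genes (13.1% higher, 20.1% lower). Between E15 and E13 edgeR called 0 of 9, with 0% of all genes called. There, 3 had an unadjusted p under 0.05 (Lhx1, Lhx9 and Lmo4), DESeq2 called 2 and limma-voom 4, and the groups did not overlap for 7 of 9, with 3 higher (Lmo1, Lmo3 and Lmo4) and 4 lower (Lhx1, Lhx5, Lhx9 and Lmo2) at E15, beside 49.4% of all genes (23.6% higher, 25.8% lower). In normoxic P12 cells against the embryo 1 of 9 was called higher and 2 lower, against 17.8% of all genes called (12.1% higher, 5.68% lower). Groups did not overlap there for 3 higher (Lmo2, Lmo3 and Lmo4) and 3 lower (Lhx1, Lhx9 and Lmo1), beside 59.4% of all genes (27.3% higher, 32.1% lower). In hypoxic P12 cells against the embryo the counts were again 1 and 2, against 26.1% called (13.2% higher, 12.9% lower). Groups did not overlap for 1 higher (Lmo4) and 3 lower (Lhx1, Lhx9 and Lmo2), beside 57.6% of all genes (21.3% higher, 36.3% lower). The 2 P12 comparisons share their embryonic libraries. For medians, genes absent from 1 group were set at their bound and genes absent from both were left out. This dropped Lhx1, Lhx5 and Lhx9 from hypoxia against normoxia, where the median of all 9 without bounds was -0.18. Median log2 fold changes of the members were -0.25, 0.05, -2.50 and -1.77 in these 4 comparisons in the order given. Those of all tested genes were -0.01, -0.01, -0.04 and -0.33. The last of these depends on scaling, since without bounds the median of all genes in hypoxia against the embryo was -0.43 with TMM factors and -0.22 with RLE factors.

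**Figure D3:**
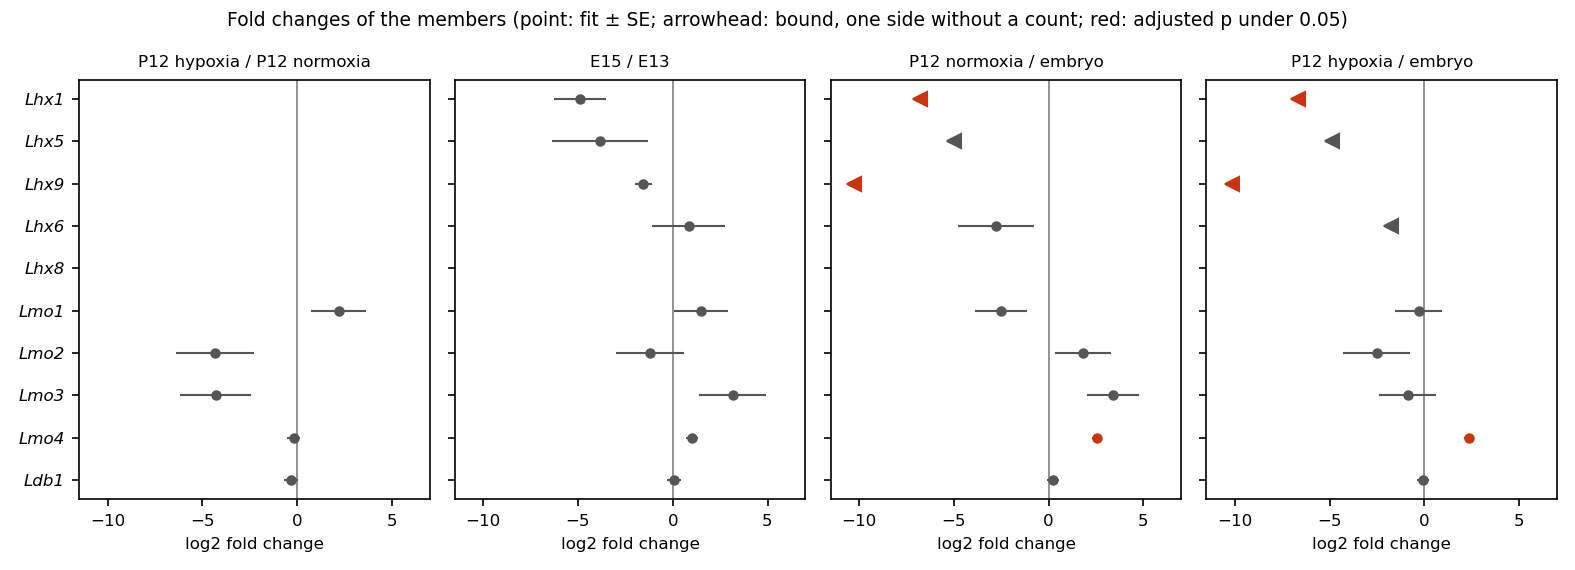
Log2 fold changes of the tested genes in 4 comparisons, with bars of 1 SE from the edgeR quasi-likelihood fit; red symbols passed the adjusted p threshold of 0.05, arrowheads mark the bound for genes with 0 counts in a P12 group, and Lhx8 and pairs of groups at or under the limit of 0 counts have no symbol. The genes called in both P12 comparisons are Lhx1 and Lhx9 (lower) and Lmo4 (higher).

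Related genes were followed in lists chosen around the members. Of 7 other LIM homeodomain genes 3 were tested, and 2 of these fell in both P12 groups against the embryo, where 5.68% of all genes fell in normoxia and 12.9% in hypoxia. Lhx2, a selector of cortical identity in progenitors, had 446 and 530.1 CPM at E13, 674 and 657 CPM at E15, 98.6 and 76.1 CPM in normoxia and 54.3 and 43.7 CPM in hypoxia. Lhx2 was thus still present at P12, and it fell by 2.71 ± 0.25 (log2, SE) in normoxia (edgeR, adjusted p = 0.00164) and by 3.54 ± 0.26 in hypoxia (adjusted p = 0.000732), while the hypoxic to normoxic difference of -0.83 ± 0.25 did not pass (adjusted p = 0.184). Lmx1a, a factor of the cortical hem and roof plate, had 5.71 and 12.3 CPM at E13, 0.951 and 2.54 CPM at E15 and 0 counts at P12, at least 55.8-fold lower in normoxia (edgeR, adjusted p = 0.0333) and at least 50.9-fold lower in hypoxia (adjusted p = 0.0263). The calls of Lhx2 held with each library left out, and those of Lmx1a ended without any 1 embryonic library or, in normoxia, any 1 normoxic library (highest adjusted p = 0.166 in normoxia and 0.1254 in hypoxia). Of 5 further proteins that bind or destabilise the LDB complex, Ssbp4, a single-stranded DNA-binding partner of LDB proteins, rose by 2.15 ± 0.51 (log2, SE) in hypoxia against the embryo (edgeR, adjusted p = 0.0295), and by 1.76 ± 0.51 in normoxia without passing (adjusted p = 0.0638). The Ssbp4 call ended without any 1 embryonic library (highest adjusted p = 0.153). No other partner was called in any of the 4 comparisons. Of 6 Lmo2 partners from blood and vessel cells 5 were tested, and Tcf12, an E-box-binding factor, fell by 2.46 ± 0.45 in normoxia against the embryo (edgeR, adjusted p = 0.0188), the 1 call in that list, which ended without any 1 embryonic library or the first normoxic library (highest adjusted p = 0.103).

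Among 8 Cajal-Retzius cell genes, the list that Lhx1 and Lhx5 belong with, 7 were tested. All 7 were lower in both E15 than in both E13 libraries, where 25.8% of all genes were, yet 0 were called, 2 had an unadjusted p under 0.05, and the median log2 fold change was -3.29 against -0.01 for all genes with absent genes at their bound. Trp73, which encodes p73 and marks these cells, had 45.9 and 95.9 CPM at E13, 3.84 and 3.20 CPM at E15, 0.159 and 0.0652 CPM in normoxia, and 0 and 0.0370 CPM in hypoxia. In normoxia against the embryo 4 of 7 fell, namely Trp73, Calb2, Ebf3 and Nhlh2 (Nhlh2 at least 1544-fold, edgeR, adjusted p = 0.00192), where 5.68% of all genes fell, and in hypoxia 5 of 7 fell, where 12.9% did. With any 1 embryonic library left out 1 of 7 was called lower in normoxia and 1 or 2 in hypoxia, and with 1 library of the P12 group left out 2 in normoxia and 3 in hypoxia. Nhlh2, a helix-loop-helix factor whose calls held with each library left out, had 0 counts in all P12 libraries, as Lhx1, Lhx5 and Lhx9 did. It had 166 and 195 CPM at E13 and 120.5 and 113.5 CPM at E15, so its level at E15 was far above that of Trp73.

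**Figure D4:**
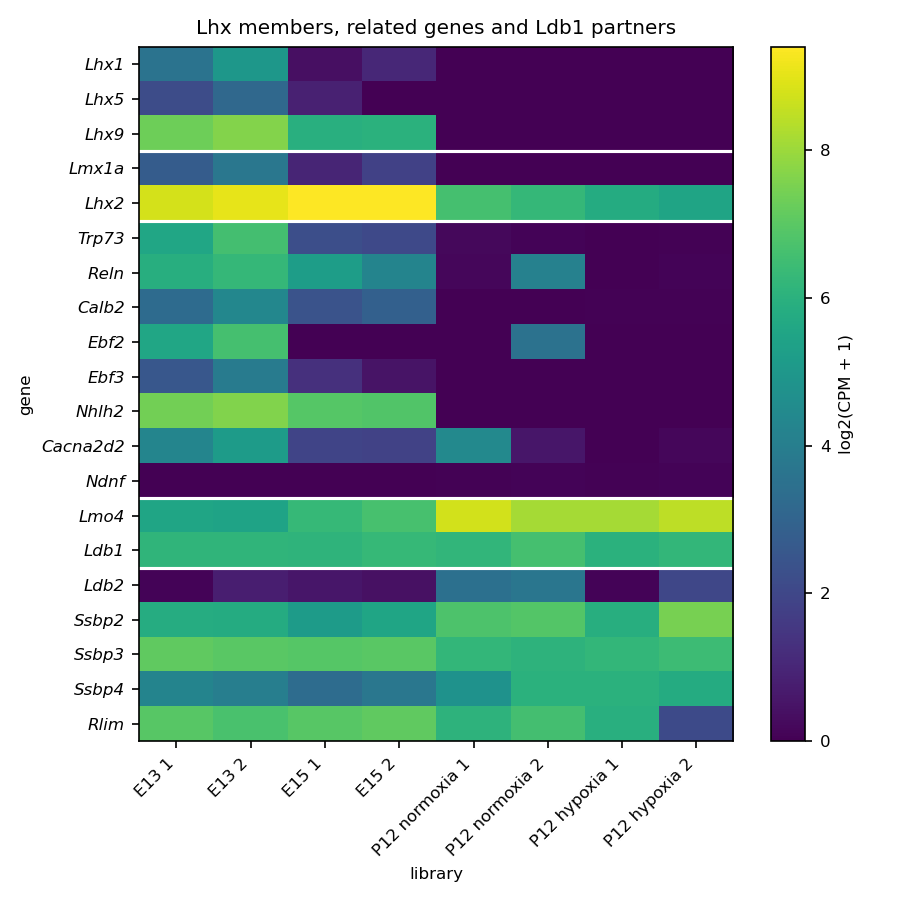
Heat map of log2(CPM + 1) in the 8 libraries (columns) for Lhx1, Lhx5 and Lhx9, 2 other LIM homeodomain genes, the 8 Cajal-Retzius cell genes, Lmo4 and Ldb1, and the 5 partners of the LDB complex (rows, in blocks split by white lines). Lhx1, Lhx5, Lhx9, Lmx1a and Nhlh2 are at 0 in all P12 libraries, while Ldb1 has nearly the same shade in all 8.

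The list of 17 medial ganglionic eminence and interneuron genes around Lhx6 had 13 tested. Nkx2-1, the regulator upstream of Lhx6, had 0 counts in all 8 libraries. Gad1, a GABA-synthesising enzyme, was at 0 in the embryo, 19.8 and 82.5 CPM in normoxia, and 0.101 and 0.0370 CPM in hypoxia, and it rose at least 983-fold in normoxia (edgeR, adjusted p = 0.00956). Its difference between hypoxia and normoxia, -9.47 ± 1.62 (log2, SE), did not pass (adjusted p = 0.0883). Gad2, the second such enzyme, rose in both P12 groups against the embryo, by 11.1 ± 1.37 in normoxia (adjusted p = 0.00497) and by 8.25 ± 1.25 in hypoxia (adjusted p = 0.00764). Ackr3, a chemokine receptor of migrating neurons, fell by 7.05 ± 1.54 in normoxia (adjusted p = 0.0314), a call that ended without any 1 library of E13, E15 or normoxia (highest adjusted p = 0.127). The Gad1 and Gad2 calls in normoxia held with each library left out, and that of Gad2 in hypoxia ended without the second E13 or the second E15 library (highest adjusted p = 0.0526). In all, 2 of 13 rose and 1 fell in normoxia, beside 12.1% and 5.68% of all genes, and 1 of 13 rose and 0 fell in hypoxia, beside 13.2% and 12.9%. In the same list 0 were called between the P12 groups (3 at an unadjusted p under 0.05) or the embryonic groups (0 at an unadjusted p under 0.05). Gad1 and Gad2 were thus present in normoxic libraries in which Lhx6 had 1 and 2 counts.

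Of 12 cortical neuron genes around Lmo3 and Lmo4, all tested, 2 rose and 4 fell in normoxia against the embryo, where 12.1% of all genes rose and 5.68% fell. In hypoxia 2 rose and 6 fell, where 13.2% and 12.9% of all genes did. Rorb, a layer 4 factor that astrocytes also express, rose by 8.56 ± 0.25 (log2, SE) in normoxia (edgeR, adjusted p = 0.000101) and by 9.18 ± 0.26 in hypoxia (adjusted p = 9.11e-05), and both calls held with each library left out. Neurod6, a factor of excitatory neurons, had 3 counts in normoxia and was 36155-fold lower there than in the embryo by pooled counts (95% counting interval 12371 to 175319; edgeR, adjusted p = 0.00194). Bcl11b, a factor of deep-layer neurons also known as Ctip2, was the 1 gene of these lists called between the P12 groups. It had 459 and 377 CPM at E13, 216 and 200.2 CPM at E15, 41.4 and 97.1 CPM in normoxia, and 0 and 0.0740 CPM in hypoxia, and was 1955-fold lower in hypoxia than in normoxia by pooled counts, 2 against 4283 (95% counting interval 541 to 16151; edgeR, adjusted p = 0.0217). That call ended without any 1 embryonic library (highest adjusted p = 0.155), with limma-voom, and with only the P12 libraries in the fit. The Bcl11b order over the P12 libraries was that of Lmo3, high in normoxia and near 0 in the first hypoxic library. Of 8 diencephalic genes around Lhx9 2 were tested, and Tcf7l2, a thalamic and glial effector of Wnt signalling, rose by 8.33 ± 0.43 in normoxia (adjusted p = 0.000351) and by 9.01 ± 0.44 in hypoxia (adjusted p = 0.000293). Of 6 cholinergic genes around Lhx8 3 were tested and 0 were called by edgeR in any comparison, with 2 at an unadjusted p under 0.05 between E15 and E13.

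For each member of at least 10 CPM in 1 library, the 3 genes with the most similar course over the 8 libraries were taken by Pearson's r of log2(CPM + 1) among 11801 genes. These values are given as a description, since the libraries share their group, age and depth and a single library can set r. Nearest to Lhx1 were Col2a1, the type II collagen gene (r = 0.997), Robo3, an axon guidance receptor (r = 0.997), and Fam46c (r = 0.992). Nearest to Lhx9 were Slc17a7, a vesicular glutamate transporter (r = 0.9996), St18 (r = 0.999) and Dennd1c (r = 0.999). Nearest to Lmo4 were Zbtb20, a zinc-finger factor (r = 0.996), Fez1 (r = 0.996) and Nav2 (r = 0.994). Lmo3 went with Hpca, a neuronal calcium sensor (r = 0.982), Smox (r = 0.976) and Rbfox1, a neuronal splicing factor (r = 0.970), and Lmo1 with Stradb (r = 0.979), Serinc5 (r = 0.972) and Sgpl1 (r = 0.960). Lmo2 had Traf3ip1 (r = 0.955), Tmem164 (r = 0.949) and Ptpn5 (r = 0.944) nearest, genes that were higher in both normoxic than in both hypoxic libraries. Ldb1 had Il10rb (r = 0.953), Rasal1 (r = 0.942) and Thsd4 (r = 0.938), and these rest on the second normoxic library, where Il10rb had 16.3 CPM against at most 1.03 CPM elsewhere. Between members, Lhx1 and Lhx5 had r = 0.962 and Lhx9 and Lmo4 had r = -0.979 over the same 8 libraries.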

How the data were processed

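Total RNA of tdTomato+ brain cells was sequenced in 8 libraries, 2 per group. The deposited files hold raw read counts per gene, made by the authors with cutadapt, STAR and Subread on GRCm38, per the submitters' processing notes. Versions, the annotation and the strand setting are not given in the sources used here. Rows that name no gene (1980, with 0.205% to 0.266% of counts) were left out.

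Tests used edgeR 4.0.16 in R 4.3.3, with DESeq2 1.42.0 and limma 3.58.1 as alternatives, and figures used matplotlib 3.10.9 under Python 3.11.15. Of the gene rows, 19936 passed filterByExpr at its settings of 10 counts and a total of 15, and TMM factors scaled the libraries. The model held the 4 groups and all 8 libraries (glmQLFit, glmQLFTest), its two-sided p-values were adjusted by Benjamini-Hochberg across the tested genes, and 0.05 was the threshold for a call. SEs were computed from the F statistics. The fit was also run on simulated counts that gave all libraries the same spread. That run did not copy the wider spread between P12 replicates, so it does not bear on calls that rest on them. CPM is the count divided by the TMM-scaled library size and given per mega-count. Scaling factors were 1.32 to 1.38 in the embryo and 0.639 to 0.848 at P12. Exon lengths and coordinates are from GENCODE M21, promoters from RefSeq GRCm38.p6, in which 8 of 10 members matched. A count of 0 allows up to 3 counts. This limit and the 95% intervals of pooled ratios (exact binomial) describe counting error and nothing else, because the sources describe no molecular identifiers and reads may repeat a molecule. With 2 libraries against 2, no permutation test can reach 0.05.

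The members and lists were chosen with earlier results of these data known. Named were all members, up to 4 called genes of smallest p per list and comparison, lists with 3 or fewer genes above 1 CPM, and the 3 nearest patterns per member among filtered genes with a group mean of at least 5 CPM (leaving out Gm and Rik symbols and pseudogenes). Nkx2-1, Lhx1os and list genes named for a level alone were chosen after their values were seen. Alternatives were DESeq2, limma-voom with quality weights, RLE scaling, no filter, a filter of 5 CPM in 2 libraries, only the compared groups, a replicate block, and leaving out each library.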

Additional observations from a re-analysis of the deposited data

How the results depend on the processing

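Over 33 member results that had a fold change, each under up to 15 alternatives, 438 values kept direction and side of the threshold, 21 passed it newly, 16 no longer passed it and 12 turned sign. Lmo4 kept its call against the embryo in both P12 groups under all 15, and Lhx9 in all but limma-voom for hypoxia (adjusted p = 0.0611). Lhx1 also lost its call with limma-voom (adjusted p = 0.258 in normoxia, 0.375 in hypoxia) and, in normoxia, with no filter (0.0509).

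Members called between hypoxia and normoxia were 0, but 1 with DESeq2 and 0 to 2 with 1 library left out. Between E15 and E13 they were 0, but 2 with DESeq2 (Lhx1 and Lhx9), 4 with limma-voom (those with Lmo1 and Lmo3) and 2 with only the compared groups (Lhx9 and Lmo3). For normoxia against the embryo they were 3, but 4 with DESeq2 and with only the compared groups, 2 with no filter and 2 to 4 with 1 library left out. For hypoxia against the embryo they were 3, but 1 with limma-voom, and 2 to 4 with 1 library left out.

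Signs turned as follows (log2 fold change). With 1 library left out, Lmo4 between the P12 groups ran from -0.463 to 0.387, positive without the first normoxic (0.387) or first hypoxic (0.0657) library. Lhx6 ran from -0.146 (without the first E13 library) to 7.30 between E15 and E13, and from -3.34 to 0.455 (without the second E13 library) in normoxia against the embryo. Ldb1 between E15 and E13 ran from -0.0506 (without the second E15 library) to 0.151. In hypoxia against the embryo Ldb1 was 0.159 with DESeq2 and with RLE and 0.0417 with only the compared groups, and ran from -0.183 to 0.0438 with 1 library left out (0.0208 without the first normoxic, 0.0438 without the first hypoxic). There Lmo1 ran from -0.784 to 0.0499 and Lmo3 from -7.19 to 0.106, both positive without the first hypoxic library. For all of these the cause was not tested.

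The labels do not say whether equal replicate numbers pair libraries. Deviations from group means did not correlate between equal numbers over all tested genes (r -0.0444 to 0.0137 over 6 pairs of groups). With 2 libraries per group this cannot show whether a pairing touched some of the genes. With a replicate block, 0, 0, 2 and 2 members were called in hypoxia against normoxia, E15 against E13, and normoxia and hypoxia against the embryo, and 1, 0, 1705 and 2868 of all genes. The block ended the call of Lhx1 in normoxia (adjusted p = 0.0784) and hypoxia (0.0601) and no other call of a member. Among the related genes it ended the calls of Bcl11b in hypoxia against normoxia, of Ackr3, Ebf3 and Lmx1a in normoxia against the embryo, and of Bcl11a, Ebf3, Lmx1a, Reln and Ssbp4 in hypoxia against the embryo.

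Calls over all genes moved far more. Hypoxia against normoxia had 602, with 3981 in DESeq2, 0 in limma-voom and with only the compared groups, 295 with no filter, and 0 to 3018 with 1 library left out. The share of these calls that were higher was 6.48%, and 34.4% in DESeq2. E15 against E13 had 0, with 374 in DESeq2, 935 in limma-voom and 229 with only the compared groups. Normoxia against the embryo had 3541, with 7252 in DESeq2, 6731 with only the compared groups and 928 to 5990 with 1 library left out, and the higher share went from 68.0% to 56.9% in DESeq2. Hypoxia against the embryo had 5208, with 9001 in DESeq2, 2390 in limma-voom and 1562 to 6836 with 1 library left out. For the Lhx members at P12 the limit of 3 counts equals 0.0953 to 0.111 CPM, against 0.0482 to 0.0537 CPM in the embryo. Total counts of the 2 ages overlapped, and the limits differ through the scaling factors (0.639 to 0.848 at P12 against 1.32 to 1.38).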
